A study of Homo sapiens with 6 samples.

Results

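MHC class I antigen presentation was followed here through 9 genes, HLA-B, HLA-C, HLA-E, HLA-F, B2M, TAP1, TAP2, TAPBP and NLRC5, taken by symbol from the 61860 gene rows of the deposited tables. All 9 were among the 18740 genes that passed the filter on low counts. RNA came from 786-O cells, a long-established human kidney cancer line (clear cell carcinoma) with no working VHL tumour suppressor. One group stably expressed a control short hairpin RNA (shRNA). The other stably expressed an shRNA directed at METTL3, the enzyme that places the m6A (N6-methyladenosine) mark on mRNA. There were 3 libraries in each group, named A, B and C after the columns of the deposited tables. Per its title, the study is about m6A in kidney cancer that is high in L-2-hydroxyglutarate, and the contrast shows which RNAs change with less METTL3. The labels name 1 target and no second hairpin, and they do not say whether the cells were a pool or a clone, or whether the libraries came from separate cultures. The p-values therefore reflect only how far these libraries spread, and that spread may be technical.

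Class I molecules display peptides from inside the cell to CD8+ T cells. Each is a heavy chain, such as HLA-B, HLA-C, HLA-E or HLA-F, held together with the invariant light chain beta-2 microglobulin (B2M). Proteasomes, including the interferon-induced immunoproteasome, cut proteins into peptides, the TAP1-TAP2 transporter moves them into the endoplasmic reticulum, and tapasin (TAPBP) bridges the transporter to the waiting heavy chain. NLRC5 is a transactivator that acts at class I promoters through a complex bound to an upstream enhancer. Interferon raises most of these genes, in part through interferon regulatory factors (IRF).

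The genes share a neighbourhood and, in part, their promoter sequence. On GRCh38 with GENCODE 29, 7 of the 9 lie on chromosome 6: HLA-F on the plus strand at chr6:29722775-29738528, HLA-E on the plus strand at chr6:30489467-30494205, and HLA-C on the minus strand at chr6:31268749-31272130. HLA-B lies on the minus strand at chr6:31269491-31357188, and its annotated span overlaps that of HLA-C, with 35 exon bases in common. TAP2 lies at chr6:32821833-32838780, TAP1 at chr6:32845209-32853978 and TAPBP at chr6:33299694-33314387, all 3 also on the minus strand. B2M lies on the plus strand at chr15:44711487-44718877 and NLRC5 on the plus strand at chr16:56989485-57083531. All 9 are annotated as protein-coding genes.

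The 250 bases before the annotated start are shown for 4 genes from RefSeq on GRCh38.p14. HLA-B and HLA-C are shown because they did not pass the test below, and HLA-F and TAPBP because they were higher in the knockdown. Capitals mark matches, on either strand, to 4 motifs: the IRF core AANNGAAA, the Y box CCAAT, an X2-type element TGACG and the NF-kB consensus.
HLA-B (chr6:31357180-31357429, minus strand): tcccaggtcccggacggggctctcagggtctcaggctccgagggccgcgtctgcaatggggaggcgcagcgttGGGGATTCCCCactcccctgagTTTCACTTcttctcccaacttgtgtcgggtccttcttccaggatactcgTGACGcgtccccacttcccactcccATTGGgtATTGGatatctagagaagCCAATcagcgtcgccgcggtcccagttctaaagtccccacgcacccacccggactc
HLA-C (chr6:31272093-31272342, minus strand): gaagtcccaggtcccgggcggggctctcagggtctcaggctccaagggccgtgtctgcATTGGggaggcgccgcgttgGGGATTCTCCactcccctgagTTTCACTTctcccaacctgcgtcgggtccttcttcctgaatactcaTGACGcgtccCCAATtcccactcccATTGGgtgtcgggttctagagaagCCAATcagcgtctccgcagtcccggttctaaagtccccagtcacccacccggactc
HLA-F (chr6:29723184-29723433, plus strand): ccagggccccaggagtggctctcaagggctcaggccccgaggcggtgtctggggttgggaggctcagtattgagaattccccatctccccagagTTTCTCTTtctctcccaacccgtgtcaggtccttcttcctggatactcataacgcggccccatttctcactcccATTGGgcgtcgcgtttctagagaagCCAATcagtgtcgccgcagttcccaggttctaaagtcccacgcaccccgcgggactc
TAPBP (chr6:33314079-33314328, minus strand): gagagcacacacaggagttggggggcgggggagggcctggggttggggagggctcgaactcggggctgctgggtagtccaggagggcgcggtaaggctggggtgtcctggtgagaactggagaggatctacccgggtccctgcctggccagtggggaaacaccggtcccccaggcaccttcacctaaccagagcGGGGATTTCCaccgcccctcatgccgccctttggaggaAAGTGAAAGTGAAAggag

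Of the 9 genes, 7 had an entry in the promoter table, all but HLA-E and NLRC5. The first listed start of each of the 7 held an IRF core, which 20.3% of 35114 promoters of the same length held. HLA-B, HLA-C and HLA-F each held 1 IRF core match. B2M, TAP1, TAP2 and TAPBP each held 2 matches that overlapped, as the run AAGTGAAAGTGAAA before TAPBP shows. The Y box matched 3 times before HLA-B, 4 times before HLA-C, 2 times before HLA-F, and once each before B2M and TAP1, against 32.0% of all promoters with a match. The X2-type letters were found before HLA-B, HLA-C, B2M and TAP2, and in 21.2% of all promoters. The NF-kB consensus matched 2 times before HLA-B, in overlap, and once each before HLA-C, B2M, TAP1 and TAPBP, against 5.21% of all promoters. HLA-F lacked both the X2-type and the NF-kB letters in this window. TAP2 lacked the NF-kB letters, and TAP1 and TAPBP lacked the X2-type letters. The second RefSeq start of TAP1 had no match to any of the 4 motifs. A match is only a run of letters, and no factor binding was measured.

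**Figure D1:**
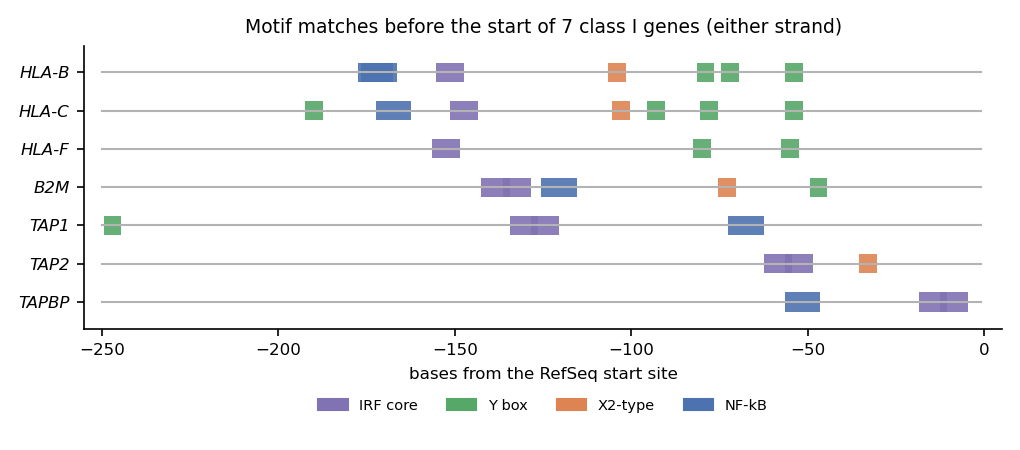
Positions of the motif matches in bases before the RefSeq start (0 on the horizontal axis) for the 7 class I genes with an entry, first listed start of each. HLA-B, HLA-C and HLA-F carry the IRF core between -156 and -144, while in TAPBP the 2 overlapping IRF core matches lie between -18 and -5.

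The targeted transcript was lower in every knockdown library. METTL3 measured 37.6 ± 0.43 CPM (counts relative to the TMM-scaled library total; SD, n = 3) in the controls and 10.8 ± 0.87 in the knockdown. This is a log2 fold change of -1.80 ± 0.08 (SE; adjusted p = 1.45e-07, edgeR quasi-likelihood test with Benjamini-Hochberg adjustment over all genes tested). The level fell by 71.2%. TOX4, on the opposite strand, overlaps 388 METTL3 exon bases and had 3035 to 3521 counts, at most 341% of the METTL3 count. The log2 fold change of TOX4 was 0.13 (edgeR adjusted p = 0.238), not past the threshold. Whether reads were shared with METTL3 was not tested. Total counts per library ran from 100534896 to 103624456. Over all genes, 6270 of 18740 passed the threshold of 0.05, which is 33.5%, with 3099 higher (16.5%) and 3171 lower (16.9%). Scaling by library size alone gave 1985 higher and 4727 lower and shifted the median over all genes, on the log2 scale, from -0.0030 to -0.11. Without knockdown library B 4012 genes passed.

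The cells carried kidney markers and nearly no marker of other cells. Of 12 renal markers, 10 exceeded 1 CPM in all libraries, among them PAX8 and PAX2. Of the proximal tubule markers, CUBN was over 1 CPM in all libraries (1.17 to 3.04), and LRP2 and SLC34A1 stayed under 1. Of 13 leukocyte markers 12 stayed under 1 CPM and 5 were at 0 everywhere. PTPRC, which encodes CD45, reached at most 4 counts in a library. The summed leukocyte level ran from 50.1 to 59.3 CPM in the controls and from 88.6 to 115 in the knockdown. Nearly all of it was CD68, a lysosomal protein that other cells also make (53.5 ± 4.68 against 104 ± 14.1 CPM, SD, n = 3). All 5 endothelial markers stayed under 1 CPM. So did 5 of 7 fibroblast markers, with sums of 3.85 to 4.60 CPM in the controls and 2.17 to 2.35 in the knockdown. In bulk RNA of this kind, fewer cells of a type and less RNA per cell cannot be told apart.

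Among the 9 class I genes, HLA-F and TAPBP rose with METTL3 knockdown, NLRC5 fell, and the other 6 did not pass the test. A share of 3 of 9 (33.3%) is close to the 33.5% of all genes, and is therefore not a result about this group. Their median log2 fold change was 0.0012, beside -0.0030 for all genes tested. The groups did not overlap in CPM for 4 of the 9 (HLA-B, HLA-F, TAPBP and NLRC5), against 47.4% of all genes. The genes thus differed in direction, and each is described by its role.

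**Figure D2:**
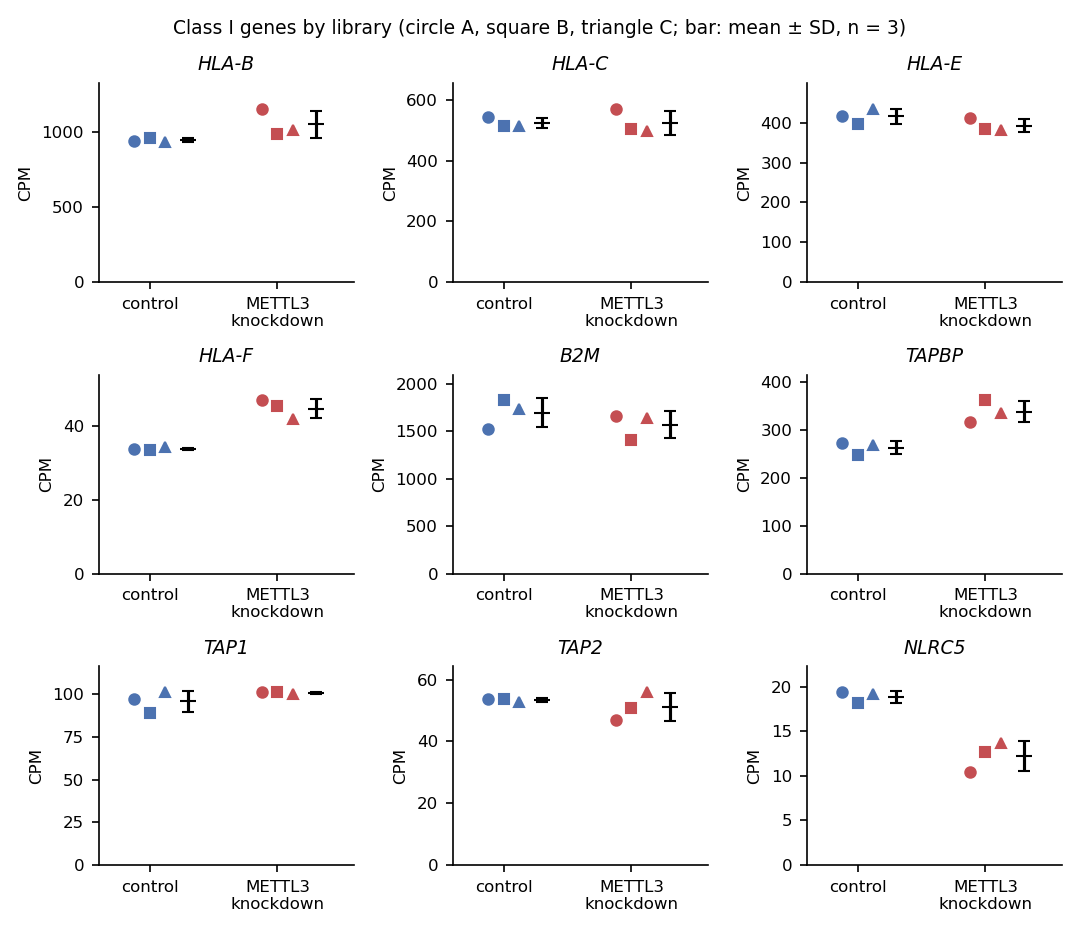
CPM (TMM-scaled; vertical axis from 0, its own scale per panel) of each class I gene in the 3 control (blue) and 3 METTL3 knockdown (red) libraries, with mean ± SD beside them. The knockdown points lie above the controls for HLA-B, HLA-F and TAPBP and below them for NLRC5, and the groups overlap in the other 5 panels.

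Of the heavy chains, HLA-B presents peptides to T cells and is also read by receptors of natural killer cells. It measured 945, 960.1 and 937 CPM in controls A to C, in that order, and 1156, 987 and 1014 in knockdown libraries A to C. In TMM-scaled CPM every knockdown library lay above every control, with library A well above the other two. The log2 fold change was 0.15 ± 0.09 (SE; 95% interval -0.04 to 0.34; edgeR adjusted p = 0.212), so the test was not passed. In FPKM the groups overlapped, at 750 to 791 in the controls and 747 to 854 in the knockdown. With library size scaling the log2 fold change of HLA-B was 0.039. HLA-C, the main ligand of killer-cell immunoglobulin-like receptors, measured 545, 515 and 515 CPM in the controls and 572, 505 and 499 in the knockdown. The groups overlapped, with library A the highest in both, and the log2 fold change was 0.0012 (95% interval -0.18 to 0.19; adjusted p = 0.994).

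HLA-E presents peptides cut from the leader sequences of other class I chains to the receptor CD94-NKG2A. Its levels were 416, 398 and 435 CPM in the controls and 413, 383 and 382 in the knockdown. Knockdown library A fell among the controls and the other two lay below them. The log2 fold change was -0.08 (95% interval -0.26 to 0.09; adjusted p = 0.461).

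HLA-F is a nonclassical heavy chain that can reach the cell surface without peptide. It measured 33.7, 33.5 and 34.2 CPM in the controls and 46.9, 45.4 and 41.9 in the knockdown. The controls lay within a narrow band and all knockdown libraries were above it, with means of 33.8 ± 0.33 and 44.7 ± 2.59 (SD, n = 3). The log2 fold change was 0.40 ± 0.07 (SE; 95% interval 0.24 to 0.56; edgeR adjusted p = 0.00140), a level 32.3% higher. HLA-F-AS1, on the opposite strand, overlaps its exons and had 109 to 169 counts, at most 4.56% of the HLA-F count in any library. The log2 fold change of HLA-F-AS1 was 0.38 (edgeR adjusted p = 0.121), not past the threshold. The pseudogenes AL645939.1 and RPL23AP1 also overlap HLA-F exons on the opposite strand, with at most 20 and 53 counts in a library. Whether reads were shared with HLA-F was not tested. HLA-F rose in all 16 alternatives, by 0.27 to 0.45 on the log2 scale.

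A ratio of 2 counts within a library does not depend on how libraries are scaled. The HLA-F count was 3.57%, 3.49% and 3.65% of the HLA-B count in the controls, and 4.06%, 4.60% and 4.13% in the knockdown. All knockdown values were higher. The exact permutation test over libraries gave a two-sided p = 0.1, the smallest that 3 against 3 allows. Adjusted over the 4 ratios computed, this permutation p stayed at 0.1. The 4 ratios were chosen after the values were seen, each with a gene already called as changed. Their tests therefore give no independent support. On the FPKM scale (fragments relative to transcript length and library total), HLA-F made up 2.58 ± 0.063% of the summed level of the 4 heavy chains in the controls and 3.19 ± 0.16% in the knockdown (SD, n = 3). HLA-B made up 53.2% and 55.8%, HLA-C 31.0% and 29.2%, and HLA-E 13.2% and 11.8%. The summed heavy chain level itself was 1459 ± 32.3 FPKM in the controls and 1428 ± 80.7 in the knockdown, a difference within the spread.

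B2M, the light chain of class I molecules, was the most abundant of the 9. It measured 1526, 1823 and 1733 CPM in the controls and 1660.4, 1409 and 1639 in the knockdown. The ranges overlapped, with control A below knockdown A. The log2 fold change was -0.11 ± 0.10 (SE; 95% interval -0.33 to 0.11; edgeR adjusted p = 0.431). B2M was 1.81 ± 0.17 times the summed heavy chains in FPKM in the controls and 1.58 ± 0.12 times in the knockdown (SD, n = 3), and these ranges overlapped too.

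The transporter subunits did not pass the test. TAP1, one of the pair that forms the channel, measured 97.0, 89.2 and 101 CPM in the controls and 101, 101 and 100.3 in the knockdown. Only the controls showed spread here, and the knockdown values lay within their range (log2 fold change 0.07, 95% interval -0.09 to 0.24; edgeR adjusted p = 0.475). TAP2, its partner, measured 53.7, 53.8 and 52.6 CPM in the controls and 47.0, 50.9 and 56.0 in the knockdown. The knockdown libraries spread to both sides of the controls (log2 fold change -0.06, 95% interval -0.23 to 0.11; adjusted p = 0.614).

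Both transporter genes have annotated neighbours that can share reads. PSMB8-AS1, antisense to TAP1, had 416 to 526 counts, at most 5.23% of the TAP1 count. The readthrough gene AL669918.1 lies on the strand of TAP2 and contains 79.4% of its 150-base stretches. It was given 121 to 284 counts, at most 5.01% of the TAP2 count, so the TAP2 level is less certain. No other gene of the 9 shared a 150-base stretch with another gene. At 50 bases, 6.79% of the stretches of HLA-C, 5.13% of HLA-E, 2.54% of HLA-B and 1.70% of HLA-F recurred in other genes of the annotation. The alleles of the line may differ from the reference, and how that touches the counts of the heavy chains was not tested.

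TAPBP, the tapasin gene, rose. It measured 272, 248 and 269 CPM in the controls and 318, 362 and 336 in the knockdown, with means of 263 ± 13.3 and 338 ± 22.3 (SD, n = 3). In CPM the groups did not overlap, and knockdown library B was the highest. In FPKM the ranges overlapped slightly, at 100 to 119 in the controls and 118 to 140 in the knockdown. The log2 fold change was 0.36 ± 0.08 (SE; 95% interval 0.18 to 0.54; edgeR adjusted p = 0.00504), a level 28.6% higher. On deposited FPKM values tested with limma the rise was 0.21 on the log2 scale and the call was lost (adjusted p = 0.0853 with a pseudocount of 1, 0.0887 with 0.1, and 0.197 without a filter). Per TAP1 count, TAPBP stood at 281%, 278% and 265% in the controls and 313%, 357% and 335% in the knockdown, without overlap (exact two-sided permutation p = 0.1, adjusted p = 0.1). This ratio too was chosen after the values were seen.

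NLRC5, the class I transactivator, fell. It measured 19.4, 18.1 and 19.1 CPM in the controls and 10.4, 12.7 and 13.7 in the knockdown, with knockdown library A the lowest and no overlap. The log2 fold change was -0.62 ± 0.10 (SE; 95% interval -0.84 to -0.41; edgeR adjusted p = 0.000605), and the level fell by 35.1%. Over the 16 alternatives it ran from -0.85 to -0.52, and the call held in each. Relative to B2M, the NLRC5 count was 1.27%, 0.994% and 1.10% in the controls and 0.627%, 0.899% and 0.834% in the knockdown, again without overlap (exact two-sided permutation p = 0.1, adjusted p = 0.1). This ratio was likewise chosen after the values were seen. The FPKM values of NLRC5 rest on a transcript length that is not the same in each library: counts and FPKM together imply 2294 bases in control C and 2619 to 2804 in the others. The same calculation gave 2373 to 2571 bases for TAPBP and 4517 to 4896 for TAP2. For HLA-B it gave 1266 to 1272 bases in all 6.

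**Figure D3:**
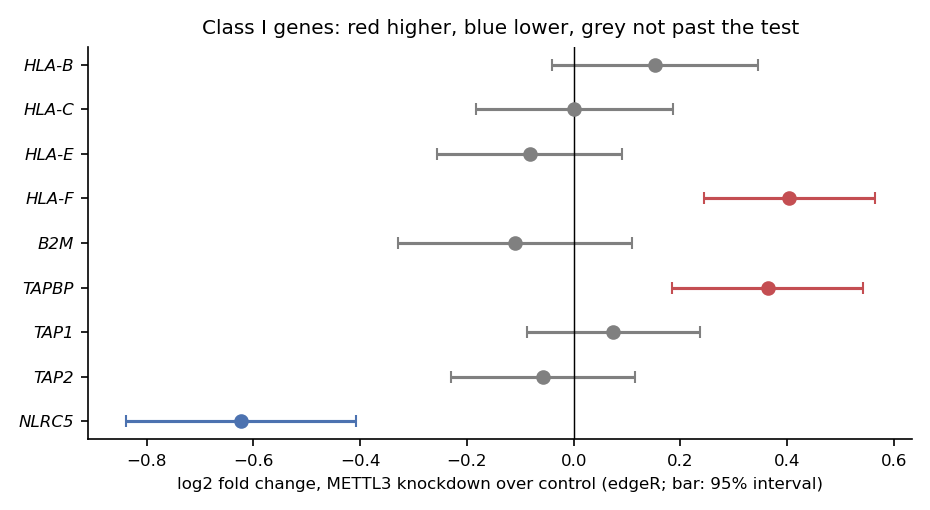
Log2 fold change of each class I gene, METTL3 knockdown over control (horizontal axis), with the 95% interval from edgeR's quasi-likelihood fit. The intervals of HLA-F (0.24 to 0.56) and TAPBP (0.18 to 0.54) lie above 0, that of NLRC5 (-0.84 to -0.41) lies below it, and the other 6 include it.

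Compared per length, the 9 genes kept 1 order in both groups, and no neighbours in that order overlapped within a group. In mean FPKM the control levels were 2641 for B2M, 776 for HLA-B, 452 for HLA-C, 193 for HLA-E and 111 for TAPBP, then 49.3 for TAP1, 37.7 for HLA-F, 11.8 for TAP2 and 7.81 for NLRC5. The knockdown levels in the same order were 2261, 796, 417, 169, 129, 47.9, 45.5, 10.4 and 4.30 FPKM. The light chain thus led and the transactivator came last. TAP1 and HLA-F were the closest neighbours, at 1.31 times in the controls and 1.05 times in the knockdown. The 9 genes together took 0.421 ± 0.025% of all counts in the controls and 0.393 ± 0.020% in the knockdown (SD, n = 3).

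The sequence GGACT, a common form of the m6A consensus, was counted in 1 transcript per gene, since METTL3 writes m6A. HLA-E held 1.92 matches per kilobase, NLRC5 1.61, TAP1 1.35, HLA-B 1.29 and TAPBP 1.06, while TAP2 held 0.801, HLA-C 0.651, HLA-F 0.612 and B2M 0.587. The median of 13810 tested coding genes was 0.946, with quartiles of 0.568 and 1.42. The 2 genes that rose, HLA-F and TAPBP, stood on either side of that median. NLRC5 lay above the upper quartile, as did HLA-E, which did not pass the test. No m6A measurement was analysed here.

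The genes that supply, load and trim the peptides mostly fell where they changed. Of 26 in this list, 9 were lower, 2 were higher and 15 did not pass the test, and their median log2 fold change was -0.13. Of the list 42.3% were called, beside 33.5% of all genes, of which 16.9% were lower and 16.5% higher. With library size scaling 14 of the 26 were lower and 1 was higher. Without control library B, and likewise without control library C, 7 of the 26 passed. PSME2, a subunit of the interferon-induced PA28 proteasome activator, measured 160, 158 and 167 CPM in the controls and 106, 86.2 and 101 in the knockdown. The groups were far apart, with a log2 fold change of -0.73 ± 0.09 (SE; edgeR adjusted p = 9.77e-05). Its partner PSME1 did not pass the test (0.0057, adjusted p = 0.970). PSME3, which forms a separate nuclear activator, fell by 0.67 (adjusted p = 0.000231).

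The 3 immunoproteasome subunits differed among themselves. PSMB9 lies beside TAP1 and is known to share a promoter region with it. It measured 44.7, 47.3 and 47.9 CPM in the controls and 33.3, 29.1 and 34.5 in the knockdown, without overlap (log2 fold change -0.53 ± 0.08, SE; edgeR adjusted p = 0.000467). PSMB10 fell by 0.34 (adjusted p = 0.00479), while PSMB8 measured 54.95 ± 0.45 CPM against 55.9 ± 6.12 (SD, n = 3) and did not pass the test (0.03, adjusted p = 0.839). The PSMB9 count was 46.1%, 53.0% and 47.2% of the TAP1 count in the controls and 32.8%, 28.8% and 34.4% in the knockdown. All knockdown ratios lay below all controls (exact two-sided permutation p = 0.1, adjusted p = 0.1), for a pair chosen after the values were seen.

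TAPBPL encodes the tapasin relative TAPBPR, a peptide editor, and it moved opposite to TAPBP. Its CPM were 17.6, 16.2 and 16.0 in the controls and 11.6, 11.2 and 11.98 in the knockdown (log2 fold change -0.52 ± 0.08, SE; edgeR adjusted p = 0.000600). SAR1B, a small GTPase of the vesicles that leave the endoplasmic reticulum, fell by 0.52 (adjusted p = 0.00109). The exceptions to the direction were NPEPPS, a cytosolic aminopeptidase, and BCAP31, a cargo receptor of the endoplasmic reticulum. NPEPPS rose by 0.52 (adjusted p = 0.000371). BCAP31 rose by 0.28 (adjusted p = 0.0287), a call that 9 of 16 alternatives lost.

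Of 22 transcription factors and chromatin regulators that act on class I genes, 4 were lower, 2 were higher and 16 did not pass the test, with a median log2 fold change of -0.05. The share called, 27.3%, is close to the 33.5% of all genes and is not a result about the list. With library size scaling 8 were lower and 0 higher. Without knockdown library C 10 passed. With each of control C, knockdown A and knockdown B left out in turn, 4 passed. IRF9, the DNA-binding subunit of the type I interferon complex, measured 30.7, 28.1 and 23.7 CPM in the controls and 18.4, 18.5 and 19.3 in the knockdown. Every knockdown library lay below every control (log2 fold change -0.55 ± 0.09, SE; edgeR adjusted p = 0.000864).

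IRF1, an interferon-induced activator of class I promoters, measured 256, 236 and 263 CPM in the controls and 219, 202 and 265 in the knockdown. Knockdown A and B lay below all controls and knockdown C above all of them, and the log2 fold change of -0.14 was not past the threshold (edgeR adjusted p = 0.298). Without knockdown C it was -0.26 with an adjusted p of 0.0391. RFX5 and RFXAP, subunits of the complex through which NLRC5 and CIITA reach DNA, rose by 0.22 (adjusted p = 0.0316) and 0.40 (adjusted p = 0.0304), calls lost in 10 and 8 of 16 alternatives. CIITA, the class II counterpart of NLRC5, was low, at 2.49 ± 0.28 and 2.68 ± 0.20 CPM (SD, n = 3), and did not pass the test (log2 fold change 0.11, adjusted p = 0.574). ATF1, a factor that binds X2-type elements, fell by 0.35 (adjusted p = 0.00372). EZH2, a histone methyltransferase known to silence class I genes, fell by 0.34 (adjusted p = 0.00509).

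**Figure D4:**
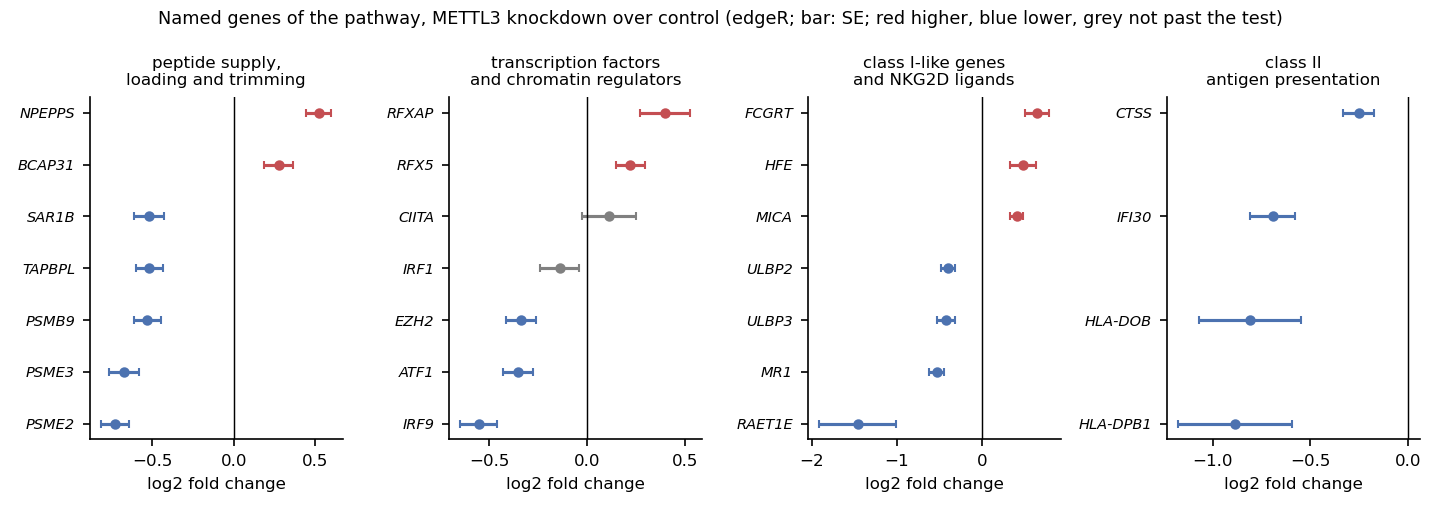
Log2 fold change, METTL3 knockdown over control (horizontal axis, its own scale per panel), of genes named in the text from the 4 other lists of the pathway, with SE from edgeR; most were chosen for passing the test. Red marks genes that were higher, blue lower and grey not past the test; PSME2 at -0.73 and IRF9 at -0.55 are the lowest of their panels.

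Class I-like molecules and ligands of NKG2D, an activating receptor of natural killer and T cells, went both ways. Of 15 genes 11 were tested, and 4 were lower, 3 higher and 4 not past the test, with a median log2 fold change of -0.10. The share called was 63.6%, beside 33.5% of all genes (16.9% lower and 16.5% higher). That share includes RAET1E, whose counts were low. With the filter of 1 CPM in 3 libraries, 6 of 10 passed, 3 higher and 3 lower. MR1, which presents vitamin B metabolites to MAIT cells, measured 28.3, 29.3 and 33.5 CPM in the controls and 19.8, 19.6 and 23.3 in the knockdown (log2 fold change -0.54 ± 0.09, SE; edgeR adjusted p = 0.000984). MICA, an NKG2D ligand coded near HLA-B, measured 20.7, 20.1 and 19.7 CPM in the controls and 28.3, 26.1 and 25.5 in the knockdown (0.40 ± 0.08, SE; adjusted p = 0.00177). Neither gene's groups overlapped, and the directions were opposite.

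The other NKG2D ligands did not follow MICA. ULBP2 fell by 0.41 (edgeR adjusted p = 0.00271), ULBP3 fell by 0.43 (adjusted p = 0.00637), and MICB did not pass the test (-0.05, adjusted p = 0.770). RAET1E had 11 to 24 counts per library in the controls and 5 to 7 in the knockdown. It passed the filter on low counts through the controls alone. Its log2 fold change of -1.46 (edgeR adjusted p = 0.0238) therefore gives no support for a fall, and the call was lost in 6 of 13 alternatives. FCGRT, the neonatal Fc receptor heavy chain, rose by 0.64 (adjusted p = 0.00394) from 1.90 ± 0.16 to 2.97 ± 0.26 CPM (SD, n = 3). HFE, a regulator of iron uptake that pairs with B2M, rose by 0.47 (adjusted p = 0.0315), a call lost in 7 of 16 alternatives. HLA-G, a nonclassical heavy chain, reached no more than 1 count per library, too few to test.

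The HLA genes of class II were low, with at most 187 counts in a library, while CD74, CTSS and IFI30 were not. Of 14 listed, 8 were tested, and 4 were lower, none higher and 4 not past the test, with a median log2 fold change of -0.33. That is 50% called, beside 33.5% of all genes, in a list of 8. HLA-DRA had at most 2 counts in a library. The count of 4 fell to 1 without control B, knockdown A or knockdown B, and to 2 without control C. IFI30, a thiol reductase of lysosomes that prepares antigens, measured 10.6, 10.6 and 13.3 CPM in the controls and 8.00, 6.86 and 6.51 in the knockdown. The groups did not overlap, and the fall was 0.69 on the log2 scale (SE 0.12; edgeR adjusted p = 0.000765).

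The other class II calls were less stable. CTSS, a lysosomal protease, fell by 0.25 (edgeR adjusted p = 0.0264, lost in 4 of 16 alternatives). HLA-DOB, at 31 to 112 counts, fell by 0.81 (adjusted p = 0.0300, lost in 4 of 15). HLA-DPB1, at 14 to 35 counts, fell by 0.89 (adjusted p = 0.0318, lost in 10 of 15). CD74, the invariant chain, was the one abundant class II gene besides CTSS and IFI30, at 61.1 ± 8.10 and 58.0 ± 4.24 CPM (SD, n = 3), and did not pass the test (-0.08, adjusted p = 0.581).

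The directions of the 3 changed class I genes were next set against the 16 alternatives. HLA-F and NLRC5 kept their calls in all of them, and TAPBP kept its call in 13. HLA-C and TAP1, never past the threshold, took the opposite sign in 8 and 4 of the 16. HLA-B, HLA-E, B2M and TAP2 kept their sign and stayed short of the threshold in all 16.

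**Figure D5:**
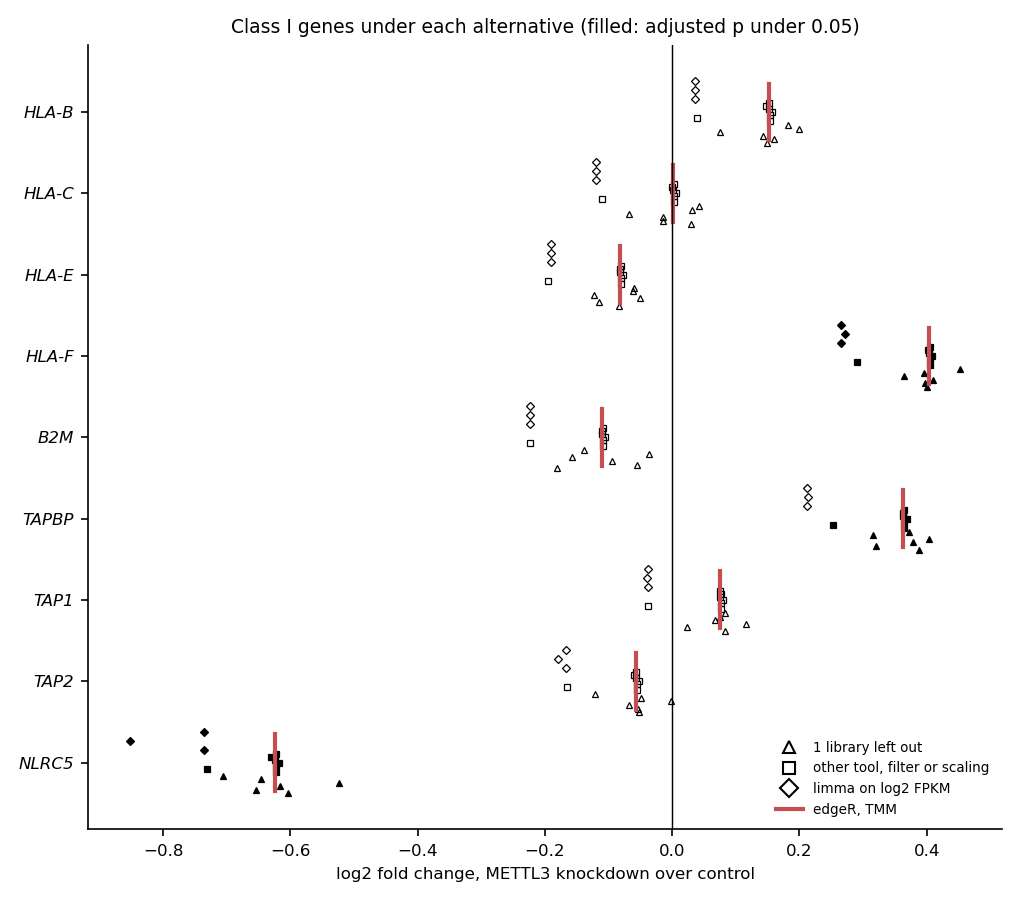
Log2 fold change of each class I gene (horizontal axis) under the 16 alternatives: triangles leave out 1 library, squares change the tool, filter, scaling or block, diamonds use limma on log2 FPKM, and the red line is the edgeR value with TMM scaling. Filled symbols passed an adjusted p of 0.05; only HLA-F, TAPBP and NLRC5 have any, and the 3 diamonds of TAPBP are open.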

How the data were processed

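RNA from 3 control and 3 METTL3 shRNA libraries was sequenced as paired ends after removal of ribosomal RNA (DNBSEQ), per the labels' protocols. Salmon, STAR 2.7.10b and GRCh38 are named, without roles, per the submitters' processing notes. For annotation release and strand setting nothing is given in the sources used here. The authors deposited whole-number counts and FPKM values for 61860 genes. Control columns were matched by name. The other 3 columns carry a construct number that no label explains and were taken as the METTL3 shRNA libraries because no other group remained. METTL3 itself is the check of that.

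Deposited counts were filtered (filterByExpr), given TMM factors and analysed with edgeR 4.0.16 (quasi-likelihood test) in R 4.3.3, with Benjamini-Hochberg adjustment over all 18740 genes at 0.05. CPM are counts over the TMM-scaled library total. Total counts of 100534896 to 103624456 per library leave the spread between libraries as the limit on precision for all but weakly expressed genes. Libraries within a group differed by more than sampling error (chi-square between 16.5 and 62.8 times its degrees of freedom). Positions, exon overlaps and shared stretches came from GENCODE 29, which held 58308 of the identifiers. Promoters came from RefSeq on GRCh38.p14, as 250 bases before each start.

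The genes and lists were chosen with earlier results of these data known, the motifs after the sequences were seen, and the 4 ratios of counts after the values were seen. The text names METTL3, the 9 genes, up to 6 genes with the smallest p past the threshold in each of 4 other lists, exceptions to a list's direction, IRF1, RFX5, CIITA, and the 5 genes most like the 9 in pattern. Genes outside that rule (PSME1, PSMB8, PSMB10, MICB, HLA-G, HLA-DRA, CD74, and cell type markers) were named as partners or low genes after their values were seen. Some genes that met the rule are not reported here. Alternatives were DESeq2-type size factors, library size scaling, DESeq2 1.42.0, no filter, a filter of 1 CPM in 3 libraries, limma 3.58.1 on log2(FPKM + 1) and log2(FPKM + 0.1) with and without a filter of 0.5 FPKM in 3 libraries (without it for a pseudocount of 1 alone), leaving out mitochondrial transcripts, the column letter as a block, and leaving out each library.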

Additional observations from a re-analysis of the deposited data

How the results depend on the processing

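The count of 6270 changed genes fell to 3271 (1027 higher, 2244 lower) with limma on log2(FPKM + 1) without a filter, and ran from 4012 to 6589 with 1 library left out. Class I genes numbered 3 in 13 alternatives and 2 in the 3 FPKM fits, which lost TAPBP. Leaving out 1 library gave 7 to 10 changed genes of peptide supply, 4 to 10 transcription factors and chromatin regulators, 5 to 7 class I-like genes and 1 to 3 class II genes. With limma on log2(FPKM + 1) without a filter, 4 class I-like and 2 class II genes changed, and the filter of 1 CPM left 2 class II genes. HLA-C, at 0.0012, turned to -0.11 with library size scaling, -0.0011 with the replicate block and -0.12 in each FPKM fit, and ran from -0.068 to 0.042 with 1 library left out. TAP1, at 0.07, turned to -0.037 with library size scaling, -0.038 with limma on log2(FPKM + 1) with or without the filter, and -0.039 with log2(FPKM + 0.1). Neither passed the threshold in any of them. The cause was not tested. With the letter of the column as a replicate block, 6985 genes changed, and again 3 of the 9. The letters are not tied to the labels' replicate numbers. Same-letter libraries correlated in their deviations at -0.02 (A), -0.05 (B) and 0.17 (C), and libraries of different letters at -0.12 to 0.14. The value for C was the highest of all letter pairs. Whether a letter marks a shared culture or batch cannot be told from these values. Over the 36 genes that met the naming rule, 22 kept direction and side of the threshold in all alternatives, 12 changed side and 2 reversed. Counts were low for the HLA genes of class II (at most 187 in a library), RAET1E and HLA-G.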

Other observations

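The 5 protein-coding genes whose log2 CPM followed the mean standardised level of the 9 class I genes most closely, of 11231 compared, were STAP2 (Pearson r = 0.96 over the 6 libraries), TTF1 (0.96), EXOSC2 (0.94), ZNF232 (0.93) and THOC3 (0.92). None of the 5 passed the test between the groups. The mean they were picked to match itself overlapped between the groups, at -0.32 to 0.13 in the controls and -0.19 to 0.36 in the knockdown. That outcome therefore adds nothing. Knockdown library A was the highest of the 6 for each of them, as it was for the mean of the 9 class I genes, and the points share library and depth.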
